A study of Homo sapiens with 8 samples.

Results

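The genes described here are 54 genes of DNA replication and of the step from G1 into S phase, among 14162 genes tested on 8 expression arrays. They were chosen by symbol, each measured by the probe set of highest mean log2(signal + 10) over the 8 arrays among probe sets naming that gene alone. All 54 had a probe set above the filter on low signals, which asked for a signal over 60.0 on at least 2 arrays. The cells were labelled HEL, an established erythroleukaemia line whose JAK2 kinase carries an activating mutation, and were grown in RPMI medium with serum. One arm tested a drug: 2 arrays hold cells given CEP701 (lestaurtinib, an inhibitor of the kinases JAK2 and FLT3) at 0.5 µM for 16 h, and 2 hold cells given DMSO, its vehicle. The other arm tested a knockdown: 2 arrays hold a stable line with 1 lentiviral pLKO shRNA directed at the arginine methyltransferase PRMT5, which acts on histones and splicing proteins, and 2 hold cells with a scramble shRNA. The series asked how the drug profile compares with the knockdown profile. Nothing in the labels says whether replicates are separate cultures or whether the stable line is 1 clone, so p-values cover only how these samples spread, which may be technical.

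Before a cell copies its DNA, the origin recognition complex marks each origin, and CDC6 and CDT1 load the MCM2-7 helicase ring there, a step called licensing that geminin blocks afterwards. In S phase, CDC45 and the GINS complex join the ring to make the active helicase. DNA polymerase alpha with primase then starts each strand, the clamp PCNA, loaded by the RFC complex, holds polymerases delta and epsilon on the DNA, and histone chaperones package the new strands. Most of these genes are transcribed in late G1 by E2F factors, whose activity depends on cyclin-dependent kinases and, in blood cells, on cytokine signals through JAK2.

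The letters TTTGGCGC and TTTCGCGC are forms of the site that E2F factors bind. RefSeq promoters (GRCh38.p14, 250 bases before the transcript start to 50 after) were at hand for 48 of the 54 members, and 15 of those 48 (31.2%) held at least 1 of the forms on either strand. Of 11369 tested genes with such a promoter 2.19% did, as did 1.40% of all 27305 genes with a promoter entry. TTTGGCGC stood in 10 member promoters and TTTCGCGC in 6, and in MCM6 the forms overlapped. The letters CCAAT stood in 60.4% of member promoters and 42.7% of those of tested genes, and TTTGAA, the core of an element of mitotic gene promoters, in 6.25% and 14.4%. A match describes letters in a window and is not a measured binding site. The stretches below are shown because POLA2 fell with CEP701, and GMNN and MCM6 had lower signals there without passing the test. DUT and POLE hold such letters with small changes at the probe sets used, but another DUT probe set was at -0.56. Capitals mark the E2F forms, and each stretch lies before the transcript start and reads along the gene. The form in POLE and the TTTCGCGC forms in MCM6 read in the opposite direction.
POLA2: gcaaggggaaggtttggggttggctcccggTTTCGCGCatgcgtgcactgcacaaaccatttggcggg
GMNN: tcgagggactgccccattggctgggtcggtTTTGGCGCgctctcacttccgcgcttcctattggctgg
MCM6: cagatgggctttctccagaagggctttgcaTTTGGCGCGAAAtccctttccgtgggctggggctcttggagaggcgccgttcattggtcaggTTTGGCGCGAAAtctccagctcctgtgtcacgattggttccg
DUT: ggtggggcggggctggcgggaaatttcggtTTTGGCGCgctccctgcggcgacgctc
POLE: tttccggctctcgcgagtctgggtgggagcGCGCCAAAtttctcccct
The POLA2 stretch is chr11:65261879-65261946 on the plus strand and the GMNN stretch chr6:24775303-24775370 on the plus strand. That of MCM6 is chr2:135876492-135876625 on the minus strand, and it holds 2 copies of a run in which both forms overlap. The DUT stretch is chr15:48332140-48332196 on the plus strand and the POLE stretch chr12:132687343-132687390 on the minus strand. The 15 members with an E2F form had a median log2 change of -0.63 with CEP701 and the 33 with neither form -0.55, and 2 and 6 of them passed the test. That split is a description without a test.

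PRMT5 was lower on the shRNA arrays, with 664 and 315 at its probe set of highest signal against 1794 and 984 on the scramble arrays. Pearson's r between arrays across genes was 0.964 to 0.978 within groups and 0.804 to 0.845 between arms, so the arms stood apart by more than their treatments did within them. Some genes looked at after the data were seen differed between the arms as well. MTAP, of the methionine salvage pathway, had signals of 1.54 to 15.8 on the drug arm arrays and 374 to 604 on the shRNA arm arrays. JAK2 had 1670 to 2681 and 424 to 561. CDKN2A (6.57 to 147 over all arrays) and CDKN2B (0.458 to 30.6), looked at in the same way, were dim and overlapped between the arms. Erythroid markers fitting the HEL label, among them GATA1 (1072 to 2196) and TAL1 (7336 to 8919), were above the filter signal on every array in 4 of 6 measured genes. HBZ and ALAS2 were not. GATA1 was lower in the shRNA arm, at 1072 to 1430 against 1794 to 2196, as was HBZ, at 3.84 to 72.2 against 140 to 200. EPOR was higher there, at 541 to 723 against 205 to 540. TAL1, KLF1 and ALAS2 overlapped between the arms. All 5 megakaryocyte markers were above the filter signal on every array. Their summed signal was 11457 to 11798 on the drug arm arrays and 29621 to 63978 on the shRNA arm arrays. Most of that difference lay in PF4, at 1054 to 1980 in the drug arm and 21810 to 45436 in the shRNA arm. ITGB3 was also higher in the shRNA arm, at 632 to 2743 against 221 to 376. ITGA2B, GP9 and GP1BA overlapped between the arms. Of 5 fibroblast or epithelial markers EPCAM was at 484 to 2753 in the shRNA arm and 23.3 to 49.8 in the drug arm, and of 5 lymphocyte markers only CD79A was above the filter signal on all arrays.

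With CEP701, 8 of the 54 replication genes fell and none rose. They belong to the active helicase (CDC45) and its activation (MCM10), the polymerases (POLA2, POLE2), the fork (WDHD1), nucleotide supply (RRM2) and chromatin assembly (CHAF1A, SLBP). Of all genes tested, 2.04% fell and 3.74% rose (limma, Benjamini-Hochberg adjusted p under 0.05). At an unadjusted p under 0.05, 32 members were lower and none higher, beside 9.23% and 14.8% of all genes. The median log2 change was -0.58 over the members and 0.10 over all genes. It was below 0 for 51 members and above 0 for 3, as for 41.9% and 58.1% of all genes. Both CEP701 arrays lay below both DMSO arrays for 48 of the 54, as for 25.7% of all genes, and above them for 1, POLD3, as for 36.3% of all genes. The other POLD3 probe set was at -0.51, with both CEP701 arrays below both DMSO arrays, but it was dim (60.3 and 69 against 75.7 and 122). MCM3, PRIM2, POLD1, POLE and RPA3 were the 5 members whose groups overlapped.

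**Figure D1:**
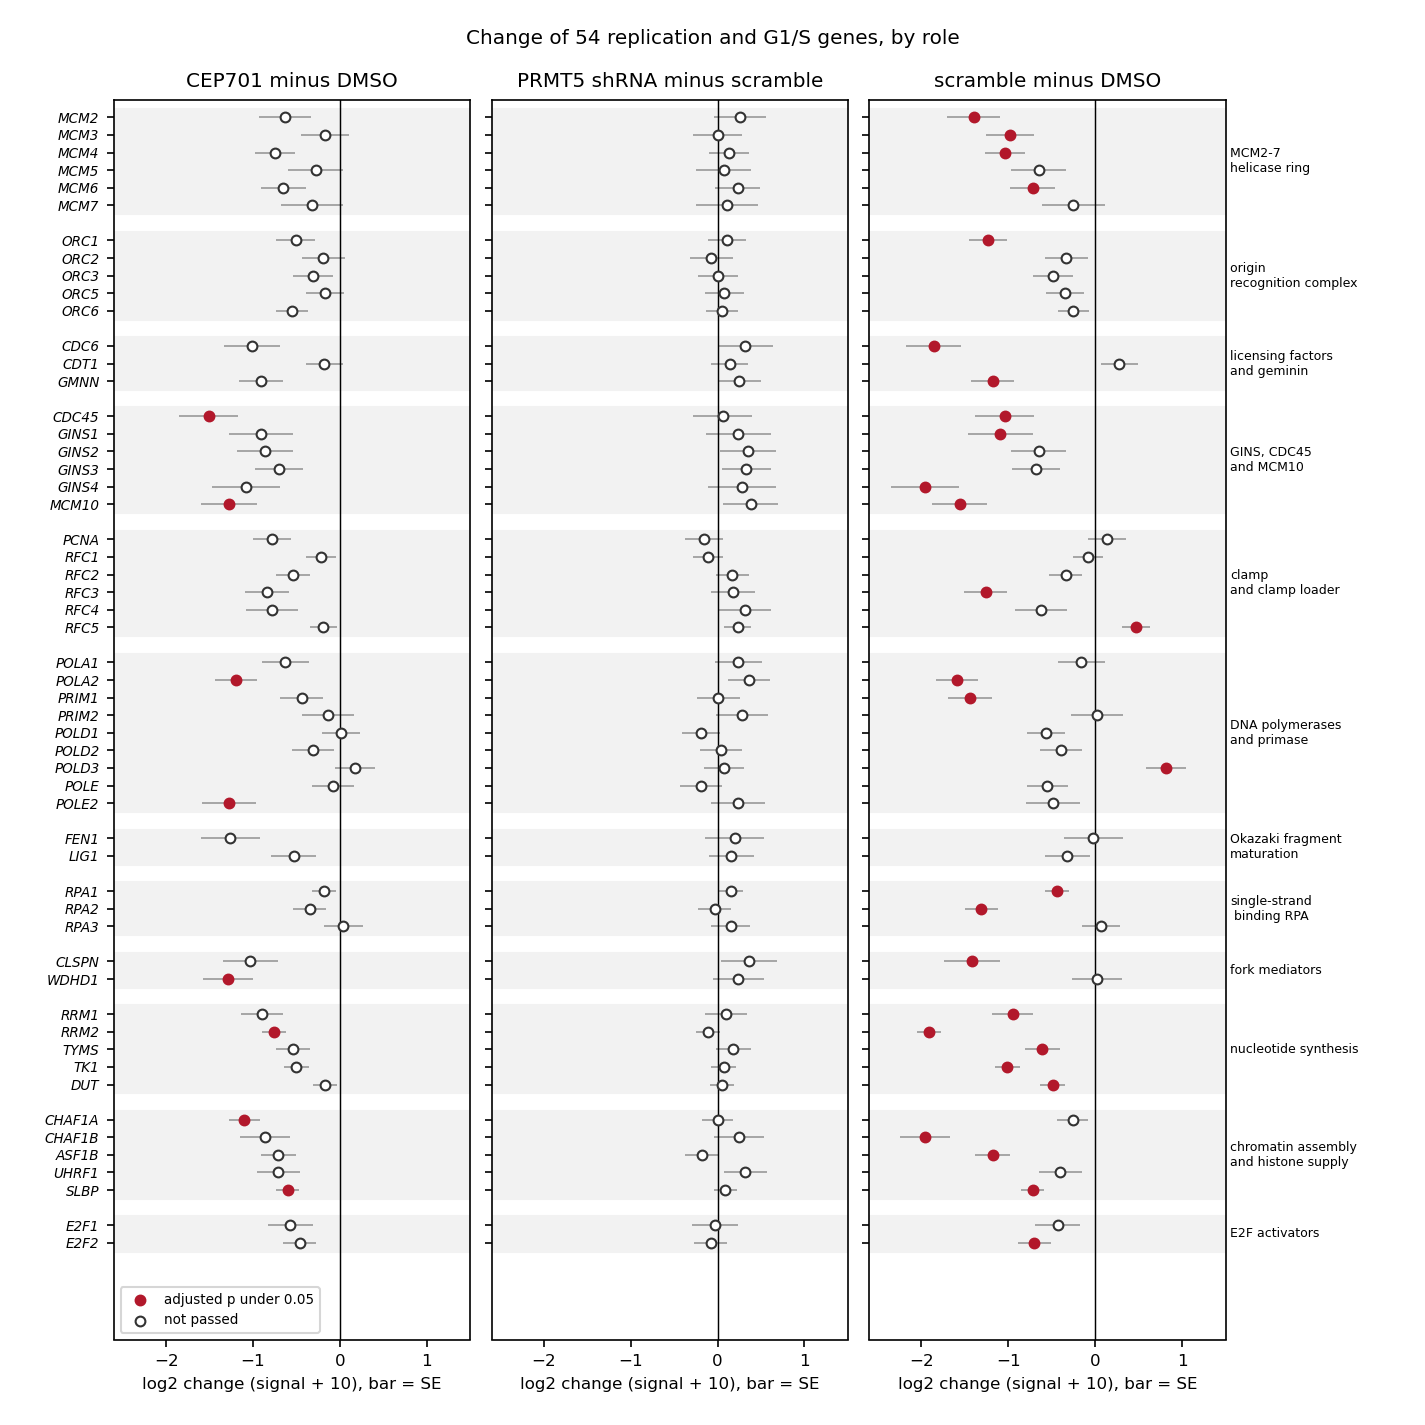
Log2 change (signal + 10) with its SE for each of the 54 members, grouped by role, in 3 comparisons; filled points passed at adjusted p under 0.05. Nearly all points lie left of 0 for CEP701 (51 of 54), around 0 for PRMT5 shRNA, and spread from -1.96 to 0.81 between the control groups.

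Of the 6 genes that turn the loaded ring into the active helicase, 2 fell. CDC45, which joins the MCM ring to form the active helicase, had signals of 463 and 377 with CEP701 and 1003 and 1447 with DMSO. It fell 2.84-fold (log2 change -1.51 ± 0.34 SE; adjusted p = 0.0379). MCM10, which is needed to activate the loaded helicase, stood at 859 and 964 with CEP701 and at 2256 and 2190 with DMSO. It fell 2.43-fold (log2 change -1.28 ± 0.32; adjusted p = 0.0487), and its 2 other probe sets gave -1.41 and -0.76. The treated arrays lay well apart from the controls for both genes. The 4 GINS subunits, which join the ring with CDC45, had log2 changes of -1.08 (GINS4), -0.91 (GINS1), -0.86 (GINS2) and -0.70 (GINS3), with adjusted p of 0.129 to 0.173. Their groups did not overlap, and GINS2 is the subunit whose probe sets above the filter disagreed, with 0.70 and 0.00 at the others. Those others were dim, with signals of 33.2 to 181 and 52.2 to 117 on the drug arm arrays.

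No gene of the helicase ring, the licensing group or the origin recognition complex passed (limma), and 2 of each had an unadjusted p under 0.05, all lower. MCM4 had the lowest p of the ring genes, with signals of 4066 and 3497 against 6232 and 6487 (log2 change -0.75 ± 0.23; adjusted p = 0.0822). The ring's 6 genes ranged from that value to -0.17 for MCM3 (median -0.47), and 5 of the 6 had separate groups. Of the licensing genes, geminin (GMNN) had 7985 and 7141 with CEP701 and 13881 and 14474 with DMSO (log2 change -0.91 ± 0.25; adjusted p = 0.0629). The loader CDC6 was at -1.01 (adjusted p = 0.094), whereas its partner CDT1 was at -0.18. All 3 had separate groups. Of the origin recognition subunits, ORC6 had the lowest p, with 1761 and 1887 against 2845 and 2521 (log2 change -0.55 ± 0.18; adjusted p = 0.106). All 5 subunits among the members had separate groups, between -0.55 and -0.17, and ORC4, a subunit kept in a list of other replication factors, was at -0.54.

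Among the polymerases, the accessory subunits POLA2 and POLE2 fell. The catalytic subunits and the other accessory subunits, POLD2 and POLD3, did not pass. POLA2, the subunit that tethers polymerase alpha, had signals of 694 and 704 with CEP701 and 1531 and 1699 with DMSO, and fell 2.29-fold (log2 change -1.20 ± 0.24; adjusted p = 0.0263). Another of its probe sets was at -0.65. The third was dim and at 1.24, with 88.2 and 89.5 against 88.1 and 7.91, so that value rests on 1 low DMSO array. With the mean of its probe sets, which includes the third, POLA2 was at -0.20 and no longer passed (limma adjusted p = 0.769). POLE2, an accessory subunit of the leading strand polymerase, had 810 and 853 against 2088 and 1988, and fell 2.43-fold (log2 change -1.28 ± 0.31; adjusted p = 0.0477). The groups did not overlap for either gene. The catalytic POLA1 was at -0.63 with separate groups (limma unadjusted p = 0.0442), POLD1 at 0.01 and POLE at -0.08. Primase subunits PRIM1 and PRIM2 were at -0.44 and -0.14, and the polymerase delta subunits POLD2 and POLD3 at -0.31 and 0.17. When the drug arm was fitted alone, POLA1 and PRIM1 fell as well. WDHD1, which links polymerase alpha to the helicase, had signals of 155 and 176 against 421 and 413. It fell 2.44-fold (log2 change -1.29 ± 0.29; adjusted p = 0.0369), with its other probe sets at -0.98 and -0.29. Claspin (CLSPN), which relays fork stress to the checkpoint, was at -1.03 (adjusted p = 0.0908).

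The clamp, its loader and the genes that finish lagging strand fragments did not pass. PCNA had 10361 and 8620 with CEP701 and 16144 and 16354 with DMSO (log2 change -0.78 ± 0.22; adjusted p = 0.0723). The loader subunits ranged from -0.84 (RFC3) to -0.19 (RFC5), and all 6 genes of clamp and loader had separate groups. RFC5 is measured by probe sets that differed, since the others gave -0.88 or lower. FEN1, the flap endonuclease, had 2713 and 2149 against 4774 and 7000 (log2 change -1.26 ± 0.34; adjusted p = 0.0606), with -1.08 at its other probe set. The ligase LIG1 was at -0.53. Of the single-strand binding proteins RPA2 had 5246 and 5202 against 6739 and 6602 (log2 change -0.35 ± 0.19; adjusted p = 0.282), and RPA1 and RPA3 were at -0.18 and 0.04.

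Nucleotide synthesis and chromatin assembly each held genes that fell. RRM2, the regulated subunit of ribonucleotide reductase, had 17373 and 16057 with CEP701 and 26483 and 30131 with DMSO. It fell 1.69-fold (log2 change -0.76 ± 0.14; adjusted p = 0.0205). The other subunit, RRM1, was at -0.90 (adjusted p = 0.0637), thymidylate synthase TYMS at -0.54, thymidine kinase TK1 at -0.50 and the dUTPase DUT at -0.17. Other probe sets above the filter gave -0.63 for RRM2, -0.91 for RRM1, -1.13 for TYMS, -0.34 for TK1, and -0.56 and -0.24 for DUT. CHAF1A, the large subunit of the chaperone that deposits histones behind the fork, had 414 and 524 against 1033 and 990. It fell 2.15-fold (log2 change -1.10 ± 0.18; adjusted p = 0.014), with -0.87 and -1.30 at its other probe sets above the filter. SLBP, which binds the stem-loop of histone mRNAs, had 10312 and 9715 against 15440 and 14847, and fell 1.51-fold (log2 change -0.60 ± 0.13; adjusted p = 0.0365). CHAF1B, the histone chaperone ASF1B and the hemimethylated DNA reader UHRF1 were at -0.86, -0.71 and -0.71. E2F2, an activating E2F, had 770 and 884 against 1088 and 1188 (log2 change -0.46 ± 0.19; adjusted p = 0.185), and E2F1 was at -0.57.

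**Figure D2:**
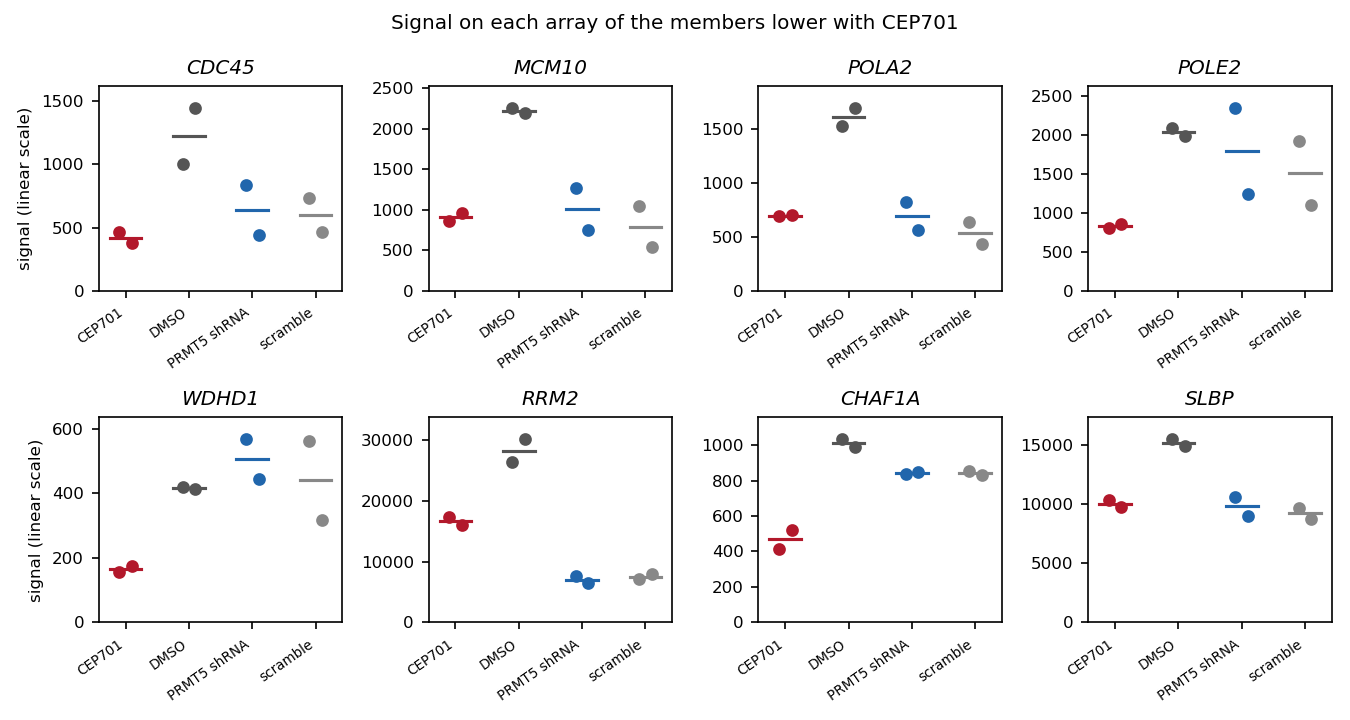
Signal (linear scale, axis from 0) on each of the 8 arrays for the 8 members that fell with CEP701; points are arrays and bars are group means of 2. The CEP701 arrays lie below both DMSO arrays in every panel, and the PRMT5 shRNA and scramble arrays overlap in each.

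Most of the members' other probe sets were lower as well. Of 45 above the filter, for 30 members, 40 were lower with CEP701 and 4 higher, with a median of -0.63. Both treated arrays lay below both controls at 33 of them. Besides those of GINS2 and POLA2, one probe set each of ORC2 (0.59) and RPA1 (0.60) stood above 0.

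The number that passed rested on the spread used. Each SE comes from all 4 groups, so it takes in the replicate gap of the shRNA arm. The members' median absolute log2 gap between replicates was 0.54 in each shRNA arm group, 0.15 with CEP701 and 0.08 with DMSO. With the mean of a gene's probe sets 7 members passed, but MCM10 (adjusted p = 0.086), WDHD1 (-0.85; adjusted p = 0.192) and POLE2 (adjusted p = 0.0574) joined POLA2 in no longer passing. When the 4 arrays of the drug arm were fitted alone, 37 of the 54 members fell and none rose, beside 10.1% and 12.6% of all genes. That count took in all 6 helicase activators, all 5 chromatin assembly genes, 4 of 5 nucleotide genes, 4 of 6 ring genes and 4 of 9 polymerase and primase genes. It also held 4 of 6 clamp and loader genes, 2 of 3 licensing genes and 2 of 5 origin recognition genes. FEN1, LIG1, CLSPN, WDHD1, RPA2 and E2F2 were the others. Without any 1 of the 4 drug arm arrays in turn no member passed, while medians stayed between -0.61 and -0.55. Scaling to array medians put the median over all genes at -0.14 and gave 19 lower members, beside 4.76% of all genes lower and 1.69% higher. Actin's 5' to 3' signal ratio, which drops as RNA degrades, stood at 0.116 and 0.161 with CEP701 and at 0.199 and 0.198 with DMSO, and its part in the result was not tested. In a bulk sample, fewer cells in S phase and less RNA per cell cannot be told apart.

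Further lists hold other genes of the pathway, to be read beside the 2.04% of all genes that fell and the 3.74% that rose. At an unadjusted p under 0.05 those shares were 9.23% and 14.8%. Of 25 other replication and fork factors 2 fell and 1 rose with CEP701 (median -0.50): DSCC1, of an alternative clamp loader, at -1.25 and DONSON, a helicase assembly factor, at -1.03. POLD4, the small subunit of polymerase delta, rose by 1.35, from 252 and 327 to 758 and 741 (adjusted p = 0.0164). Of 26 regulators of G1 and S phase 4 fell (median -0.40), namely the E2F partner TFDP1 (-0.99), CCND3 (-0.83), CDK4 (-0.82) and CCNE2 (-0.71). CDK4 had 6880 and 6004 against 11165 and 11528. Of 16 tested among 21 checkpoint and repair genes 4 fell (median -0.75), which were RAD51AP1 (-1.16), CHEK2 (-0.97), MSH6 (-0.94) and USP1 (-0.82). Of 16 other nucleotide supply genes UMPS (-0.88) and DCTD (-0.67) fell (median -0.52), and of 10 other chromatin replication genes none passed, with 2 lower and 1 higher at an unadjusted p under 0.05 (median -0.44).

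Beside these, 36 genes of G2/M and mitosis had a median log2 change of -0.25. None passed (limma), where 2.04% of all genes fell and 3.74% rose. At an unadjusted p under 0.05, 4 were lower and 1 higher, beside 9.23% and 14.8% of all genes. Of 31 ribosome synthesis genes POLR1G (-1.83) and DDX21 (-1.12) fell (median -0.52). The CEP701 arrays lay below the DMSO arrays for 21 of the 36 mitotic genes and above them for 7, and for 24 and 2 of the 31 ribosome synthesis genes, beside the 25.7% and 36.3% of all genes. The difference between these lists was not tested.

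**Figure D3:**
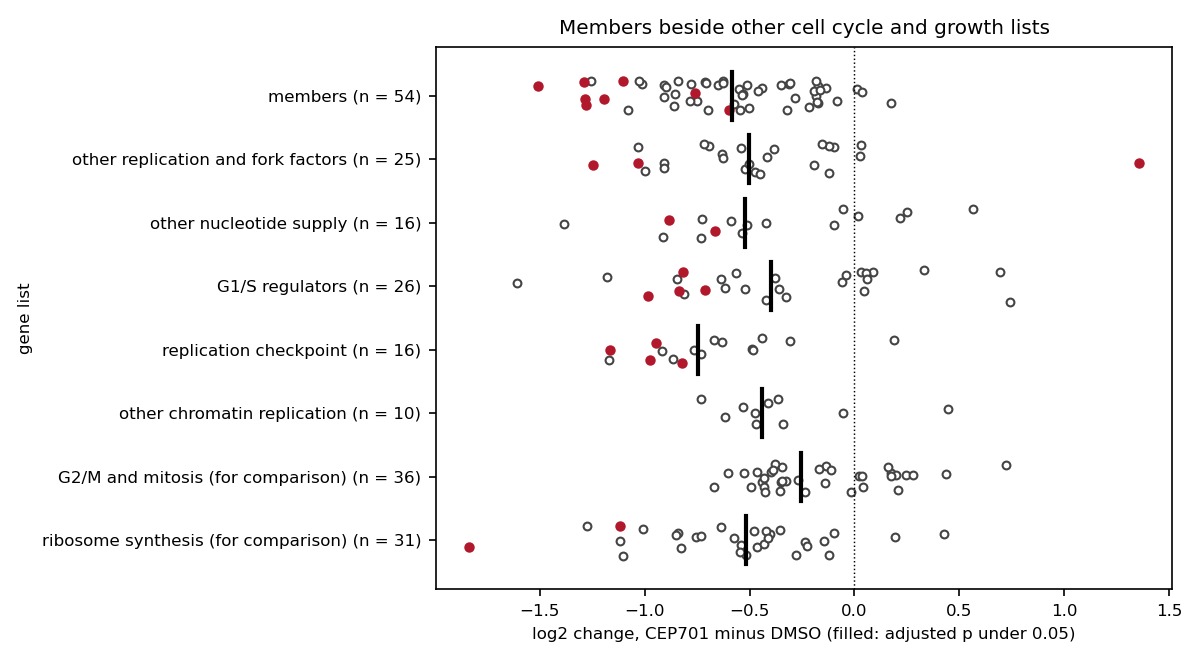
Log2 change with CEP701 for each gene of the members and of 7 other lists, with black bars at list medians and filled points for genes that passed. Medians run from -0.75 for checkpoint genes to -0.25 for mitotic genes, with -0.58 for the members, and POLD4 is the filled point on the right.

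After PRMT5 knockdown none of the 54 members passed (limma), and none had an unadjusted p under 0.05. Of all genes 0.141% fell and 0.00706% rose, and 4.31% and 2.39% had an unadjusted p under 0.05 in those directions. The median over the members was 0.13, with 0.00 over all genes, and single members ran from -0.19 (POLE) to 0.38 (MCM10). The difference was above 0 for 42 members and below 0 for 12, as for 50.5% and 49.5% of all genes. Paired by the title suffix that shRNA arm arrays share, PRMT5 shRNA was above scramble at both suffixes for 31 members and below for 4, as for 30.1% and 29.4% of all genes. The PRMT5 shRNA and scramble arrays overlapped for 53 of the 54, the exception being RFC1, a loader subunit, as against 16.1% of all genes that were lower and 14.1% that were higher without overlap. A p above the threshold does not show that the levels were alike.

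For most of the genes given here, replicates of 1 hairpin lay further apart than the group means did. MCM10 had 1268 and 755 with PRMT5 shRNA and 1040 and 536 with scramble (log2 difference 0.38 ± 0.32 SE; adjusted p = 0.894). POLA2 had 825 and 569 against 642 and 438 (0.36 ± 0.24; adjusted p = 0.847), and CLSPN 343 and 232 against 289 and 163 (0.36 ± 0.32). UHRF1 had 4804 and 3517 against 4298 and 2507 (0.32 ± 0.25). In each of these genes the first replicate of either group was the higher array. GMNN had 9451 and 5845 against 7733 and 5027 (0.25 ± 0.25), and MCM6 11958 and 7945 against 10940 and 6342 (0.23 ± 0.26). These licensing and ring genes again had their lower arrays at replicate 2. TYMS had 33460 and 22503 against 28083 and 20855 (0.18 ± 0.20), and RPA1 had 7329 and 6302 against 6559 and 5713 (0.15 ± 0.14). ORC1 was at 588 and 472 against 582 and 411 (0.11 ± 0.22), and LIG1 at 1337 and 727 against 938 and 830 (0.16 ± 0.26). In RFC5 the second shRNA replicate was the higher one, with 4272 and 5345 against 4325 and 3817 (0.23 ± 0.16). E2F2 was at 758 and 569 against 699 and 695 (-0.08 ± 0.19).

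Within the shRNA arm the members differed more by replicate than by hairpin. The median log2 gap between replicate 1 and replicate 2 was 0.54 in both the PRMT5 shRNA and the scramble group, with replicate 1 higher for 51 and 50 of the 54 members. Of all genes, replicate 1 was higher for 47.6% and 49.7%. In the drug arm the members' gap was 0.08 for CEP701 and -0.06 for DMSO. Replicate 1 was the higher array in both shRNA arm groups for 48 of the 54, as for 32.3% of all genes. MCM7 showed it most with PRMT5 shRNA, at 4187 and 1837, and GINS4 with scramble, at 516 and 198. The megakaryocyte markers ran the other way: all 5 were higher on replicate 2 in both groups, with summed signals of 29621 and 46844 for PRMT5 shRNA and 34993 and 63978 for scramble. Actin's 5' to 3' ratio was also higher on replicate 2, at 0.187 and 0.335 for PRMT5 shRNA and at 0.141 and 0.179 for scramble. The part of either in the gap was not tested.

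**Figure D4:**
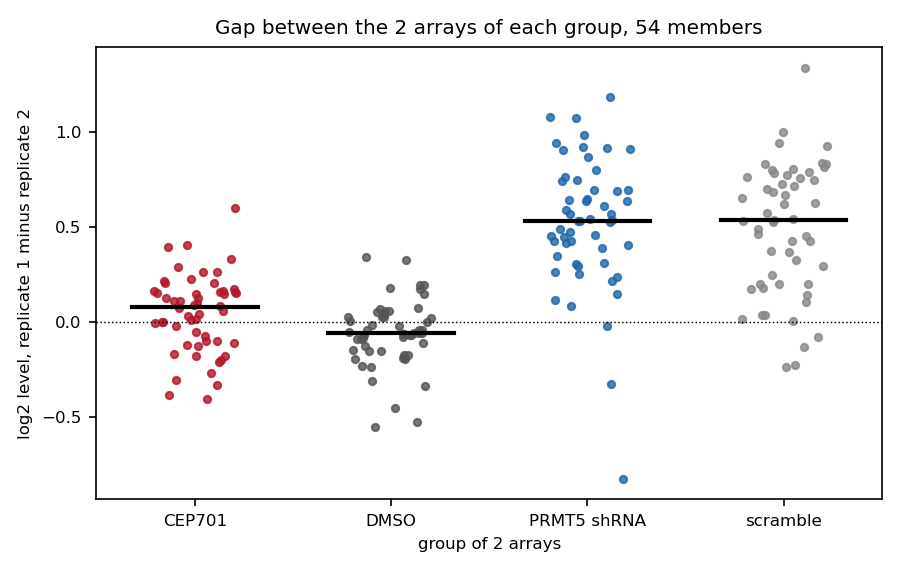
Log2 level of replicate 1 minus replicate 2 for each of the 54 members in each group of 2 arrays, with black bars at the medians. The medians are 0.54 in both groups of the shRNA arm, against 0.08 and -0.06 in the drug arm.

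For the difference between the drug effect and the knockdown effect, no member passed in either direction (limma), and 27 of the 54 had an unadjusted p under 0.05 with the drug effect lower. Of all genes, 0.325% passed with the drug effect lower and 1.11% with it higher, and 7.75% had an unadjusted p under 0.05 on the lower side and 12.1% on the higher. The difference was below 0 for 51 members and above 0 for 3, as for 43.2% and 56.8% of all genes. POLA2 came nearest, with a difference of effects of -1.56 ± 0.34 SE (adjusted p = 0.0613). Next were CHAF1A at -1.10 ± 0.25 (adjusted p = 0.0706), WDHD1 at -1.53 ± 0.41 (adjusted p = 0.0954) and MCM10 at -1.66 ± 0.45 (adjusted p = 0.0983). Without scramble replicate 1, 13 members passed on the lower side, beside 2.41% of all genes, and without PRMT5 shRNA replicate 2, 9 did, beside 1.31%. In those fits the lone array is assumed to vary like the other groups. The count of 0 comes from a model with no term for the shared title suffix and does not hold in one that has it. Among the further genes, CDK4 passed on the lower side (-1.10) and POLD4 on the higher (1.84).

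The control groups of the arms differed for 28 of the members, of which 26 were lower with scramble than with DMSO and 2 higher. Of all genes 20.3% were lower and 25.5% higher. At an unadjusted p under 0.05 the members' counts were 29 and 2, beside 23.5% and 29.3% of all genes. Both scramble arrays lay below both DMSO arrays for 42 members and above them for 2, as for 33.2% and 40.8% of all genes, and the difference was below 0 for 47 and above 0 for 7, as for 45.4% and 54.6%. The median was -0.62 over the members and 0.11 over all genes. The labels name HEL cells in both arms and do not say whether the arms came from the same stock, and MTAP, JAK2 and EPCAM differed between them as given above. Cell stock, vector, vehicle, culture and arm cannot be told apart here, and both this comparison and that of CEP701 use the DMSO arrays.

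All 5 nucleotide synthesis genes were lower with scramble. RRM2 had 7194 and 7880 against 26483 and 30131 with DMSO, which is 3.75-fold lower (log2 difference -1.91 ± 0.14; adjusted p = 7.72e-06), and it was at 7633 and 6405 with PRMT5 shRNA. Both shRNA arm groups thus lay below the CEP701 arrays for this gene. Its other probe set gave a smaller difference between scramble and DMSO, of -1.01. TK1 was at -1.01, RRM1 at -0.95, TYMS at -0.61 and DUT at -0.49. CHAF1B, the middle subunit of the histone deposition chaperone, had 308 and 177 against 904 and 974 (-1.96 ± 0.29; adjusted p = 0.000488), whereas CHAF1A, the subunit that fell with CEP701, was at -0.26 and did not pass. The comparisons thus differed in which subunit of this chaperone passed, but with CEP701 that rested on the threshold. There CHAF1B was at -0.86 with separate groups (limma adjusted p = 0.108), and it passed when the drug arm was fitted alone.

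Of the licensing and helicase genes, CDC6 was lower, with 591 and 364 against 1707 and 1723 (-1.86 ± 0.32; adjusted p = 0.00126), as were GMNN, ORC1, GINS4, GINS1, CDC45 and MCM10. GINS4 had 516 and 198 against 1135 and 1434 (-1.96 ± 0.39). In the helicase ring MCM2, MCM3, MCM4 and MCM6 were lower, by -1.40 to -0.72, and MCM5 and MCM7 did not pass. POLA2 had 642 and 438 against 1531 and 1699 (-1.59 ± 0.24; adjusted p = 0.000587), and primase PRIM1 was at -1.44. RPA2, RPA1, RFC3, CLSPN, ASF1B, SLBP and E2F2 were the others that were lower.

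Not all members followed. PCNA had 21073 and 15284 with scramble and 16144 and 16354 with DMSO (0.14), and FEN1 (-0.02) and WDHD1 (0.02), which stood at -1.26 and -1.29 with CEP701, showed overlapping control groups. POLD3 (0.81) and RFC5 (0.47) were higher with scramble, but each has probe sets that disagreed, with -1.02 at the other of POLD3 and -0.65 and -0.68 at those of RFC5. That POLD3 probe set was dim, at 59 and 29.9 with scramble and 75.7 and 122 with DMSO. With the mean of a gene's probe sets, or with scaling to array medians or poly-A controls, no member was higher. Of the regulators of G1 and S phase, the kinase inhibitor CDKN1A rose by 4.18, from 186 and 258 with DMSO to 4046 and 4229 with scramble (adjusted p = 7.72e-07). CDC25A, a phosphatase that activates the S phase kinase, fell by 3.15, from 2247 and 2650 to 304 and 233. SAMHD1, which degrades deoxynucleotides, was at 5934 and 3973 against 495 and 446 (3.34). Of the mitotic genes 21 of 36 were lower and 1 higher (median -0.82), and of ribosome synthesis genes 23 of 31 were lower (median -1.28). Among all genes 20.3% were lower and 25.5% higher.

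By role, the per array medians put the groups in different order. Relative to the DMSO mean, the GINS, CDC45 and MCM10 group stood at -1.06 and -0.96 on the CEP701 arrays, -0.65 and -1.48 on the scramble arrays and -0.42 and -1.41 on the PRMT5 shRNA arrays. Nucleotide synthesis stood at -0.49 and -0.61 with CEP701 and at -0.64 and -1.03 with scramble. The clamp and clamp loader were at -0.57 and -0.72 with CEP701 and nearer to DMSO on the shRNA arm arrays, between -0.36 and 0.04. The single-strand binding genes were lowest on scramble replicate 2, at -0.54. Over all members the arrays stood at -0.55 and -0.60 with CEP701, -0.29 and -0.76 with PRMT5 shRNA and -0.40 and -0.81 with scramble, so the replicate gap of the shRNA arm spans the CEP701 level.

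**Figure D5:**
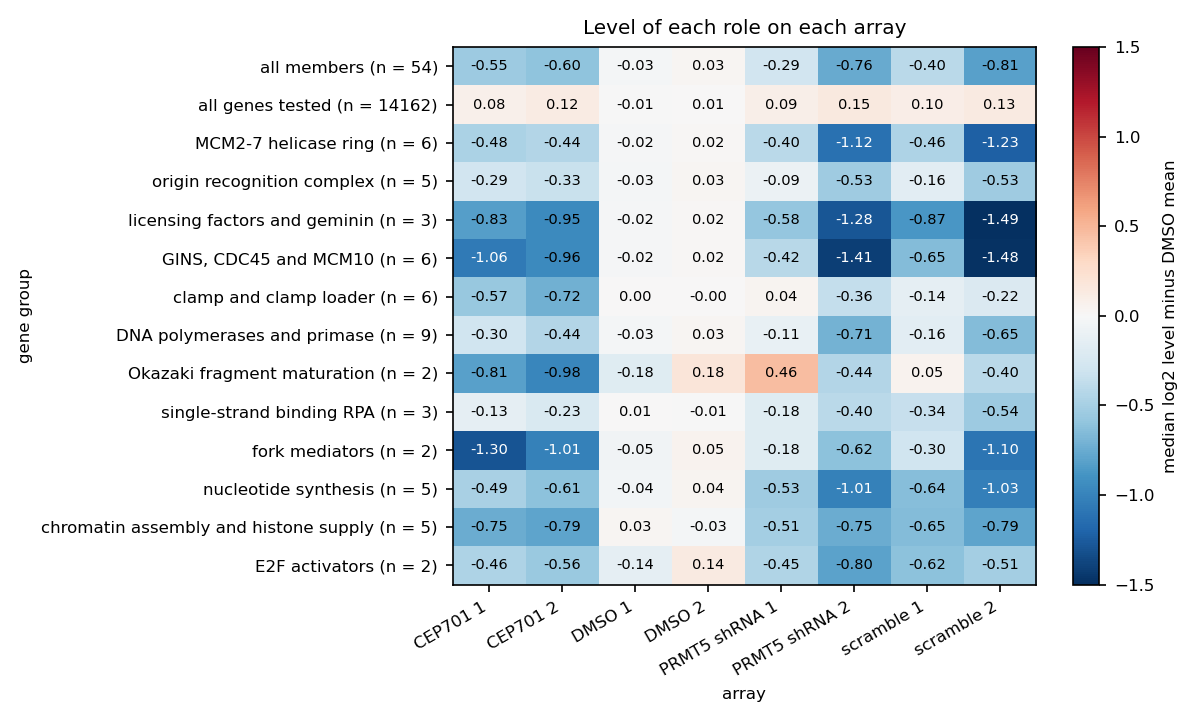
Median over each role's members of the log2 level minus the DMSO mean, for each of the 8 arrays (columns), with all members and all genes on top; blue is lower and red higher than DMSO. The members stand at -0.55 and -0.60 with CEP701, while replicate 2 of both shRNA arm groups is bluer than replicate 1.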

How the data were processed

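Transcripts were measured on 8 Affymetrix arrays of 54675 probe sets, 2 in each of 4 groups. Signal intensity was deposited by the authors unlogged, made with MAS5 in Affymetrix Expression Console per the submitters' processing notes. After trimming 2% at each end, every array averaged 500.1. A genome build is not given in the sources used here. Probe sets were named from the platform annotation, with symbols updated through Entrez identifiers, and 41097 name a single gene.

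To each signal 10 was added and log2 taken. Probe sets with a signal over 60.0 on at least 2 arrays were kept, with 1 probe set per gene as described above, giving 14162 genes. All arrays were fitted in 1 model of 4 groups with limma 3.58.1 (lmFit and trended eBayes) under R 4.3.3, leaving 4 residual degrees of freedom. Adjusted p-values are Benjamini-Hochberg values over all genes of a comparison, called at 0.05. Folds are on the log2(signal + 10) scale, which understates changes of dim genes. The fit was tested on simulated data. With 2 arrays per group, their number limits the precision.

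The members and gene lists were chosen with earlier results of these data known. All members may be named by role. Signals on every array are given for members that passed and for the member of lowest unadjusted p in each role, and up to 4 genes that passed are named from each other list. Alternatives covered the added value, the filter, normalization, the probe set rule, the variance model, the arrays fitted, a replicate block and leaving out each array.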

Additional observations from a re-analysis of the deposited data

How the results depend on the processing

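The members' median with CEP701 lay between -1.08 and -0.55 over 21 alternatives, and relative to all genes between -0.72 and -0.58. The number of members lower with CEP701, 8 as reported, was 3 without a filter, 5 with quantile normalization, 19 with median scaling, 21 with scaling to poly-A controls, 1 with eBayes without a trend and 37 with the arm fitted alone. Leaving out 1 array gave 0 to 17; it was 0 without either CEP701 or either DMSO array and 15 to 17 without 1 array of the shRNA arm. No member rose with CEP701 under any alternative run. With PRMT5 shRNA no member passed under any alternative, and the median ran from -0.14 without PRMT5 shRNA replicate 1 to 0.40 without PRMT5 shRNA replicate 2. For scramble against DMSO, 26 members were lower as reported, 41 with median scaling, and 17 to 33 with 1 array left out. The 2 higher members became 0 with median scaling, poly-A scaling and the mean of probe sets, 1 with eBayes without a trend, and 0 to 2 with 1 array left out. With the mean of probe sets RFC5 (-0.29) and POLD3 (-0.10) changed sign. The lower differences of effects, 0 as reported, were 0 to 13 with 1 array left out.

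The shRNA arm arrays share a title suffix by replicate. Their deviations from the group means correlated across genes (r = 0.323), those of same-numbered drug arm arrays did not (r = -0.0115), and no label says what suffix or number marks. With a replicate block in the shRNA arm, 35 members were lower with CEP701 (9.71% of all genes lower, 12.6% higher), 30 had a lower drug effect than knockdown effect (7.94% of all genes did), and none passed with PRMT5 shRNA. With a replicate block in both arms the counts were 33 (9.36% of all genes), 30 (7.25%) and 0. For scramble against DMSO the blocks gave 37 and 36 lower.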
